A study of Mus musculus with 48 samples.

Results

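Transcripts of 34 heat shock protein and chaperonin genes were followed through a day in liver of KO and WT mice, the KO mice lacking Bmal1, a core activator of the circadian clock that the gene table lists as Arntl. The 34 genes were chosen by name from a table of 23732 genes, and all 34 passed the filter on low counts. They were divided by role into 20 heat-inducible members (chaperones and cochaperones whose genes are known to respond to heat shock), 8 subunits of the TCP1 ring, and 6 other members that are mostly constitutive. The heat-inducible group also holds Hspa8 and Hsp90ab1, which are abundant without stress and are called constitutive below. Its counts and medians include them. The name given to the set, cytosolic heat shock proteins and chaperonins, did not cover all members: Hspa9, Hspd1 and Hspe1 encode chaperones of mitochondria.

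Liver was taken from 48 male C57BL/6 mice aged 4 to 6 months, 4 KO and 4 WT mice every 4 h from ZT0 to ZT20 (zeitgeber time, in hours). The 24 KO mice had the genotype Bmal1f/f-EsrCre, in which a tamoxifen-inducible Cre driven in all tissues removes floxed Bmal1 after birth, and the 24 WT mice were littermates with the floxed alleles and without Cre. Both genotypes received tamoxifen by gavage at 5 mg per day for 5 days, and after 7 further days and 36 h in constant darkness were killed every 4 h over 20 h. An effect of Cre itself therefore cannot be told apart from loss of Bmal1, and the WT mice also carried floxed alleles and tamoxifen. Of the mice, 38 were group-housed in 19 cages, and 10 (5 KO and 5 WT) were housed individually, without a cage label. Among group-housed mice, each successive pair of times (starting with ZT4 and ZT8, and ending with ZT20 and ZT0) drew on its own set of cages. Rhythm and cage set therefore cannot be told apart. A KO minus WT difference at a given time lies within 1 set, save for mice housed individually, whose set is not labelled. Whole liver was sequenced, and fewer cells of a type cannot be told apart from less RNA per cell.

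The libraries held 33562272 to 34035644 counts each. Summed CPM (read counts scaled to a common library size) of the hepatocyte markers measured (Cps1, Apoa1 and Ttr) lay between 9721 and 19245 in KO livers and between 8853 and 17353 in WT livers, so hepatocyte transcripts were abundant in every library. Arntl reads could not check the deletion, because the whole gene was counted. Its 24 h amplitude was 0.18 ± 0.23 (log2, SE) in KO livers and 2.03 ± 0.24 in WT livers. At ZT12 KO mice 20 and 21, and at ZT0 KO mice 43 and 44, had the libraries that correlated least with the others of their groups, and member calls lost or gained without them are named below.

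Heat shock genes are switched on by HSF1, a transcription factor that binds inverted repeats of a short GAA unit when unfolded proteins accumulate. HSP70 proteins, helped by J-domain proteins and by exchange factors, and HSP90 proteins, served by a circle of cochaperones, then hold and refold clients. The TCP1 ring, also called TRiC or CCT, is a double ring of related subunits that folds new actin, tubulin and other cytosolic proteins, and needs little induction by heat. In mouse liver, HSF1 targets are known to follow the daily course of body temperature and feeding, with high transcript levels in the active night.

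To show which members carry the element that HSF1 binds, RefSeq promoter windows (build GRCm38.p6, from 250 bases before to 50 bases after the annotated start) were matched by symbol for 27 of the 34 members, the others being Hspa8, Hspa9, Hsp90aa1, Hsp90ab1, Cryab, Hsf1 and Cct4. A three-unit heat shock element (GAANNTTC with a further GAA, or TTCNNGAA with a further TTC, 2 bases on; both strands were searched) was found in the windows of 5 members (Chordc1, Dnajb6, Hspd1, Hspe1 and Hsph1), that is in 4 of 16 heat-inducible members and 0 of 7 ring members with a window, against 0.662% of 27025 genes in the RefSeq table. The shorter two-unit element, GAANNTTC or TTCNNGAA, which lies inside every three-unit match, was in 12 of 16 heat-inducible and 3 of 7 ring members, against 17% of all genes. The E-box CACGTG, the element that BMAL1 with CLOCK binds and that reads the same on both strands, was in the windows of Hspd1 and Hsph1, against 8.09% of all genes. These are letter matches in 1 window per start site and are not measured binding sites. Hspd1 and Hspe1 are neighbours whose entries overlap, so their matches to the heat shock elements may not be separate. The windows below, picked after the values and matches were seen, are of 4 of the 5 members with the three-unit element, of a pair with the two-unit element and a wide WT rhythm, and of Cct3. They run from 120 bases before to 30 bases after the start, 5′ to 3′ on the gene's strand, with the three-unit element in capitals for Hsph1 (chr5:149636286-149636435, minus strand), Chordc1 (chr9:18292147-18292296, plus strand), Hspe1 (chr1:55088028-55088177, plus strand) and Dnajb6 (chr5:29735778-29735927, plus strand). The two-unit element is in capitals for Hspa1b (chr17:34959209-34959358, minus strand) and Hspb1 (chr5:135887799-135887948, plus strand). Cct3 (chr3:88297015-88297164, plus strand), the ring subunit with the widest WT rhythm, has neither element and is shown for contrast.
Hsph1: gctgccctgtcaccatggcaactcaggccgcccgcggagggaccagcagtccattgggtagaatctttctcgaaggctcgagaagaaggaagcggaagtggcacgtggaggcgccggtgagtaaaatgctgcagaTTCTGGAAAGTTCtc
Chordc1: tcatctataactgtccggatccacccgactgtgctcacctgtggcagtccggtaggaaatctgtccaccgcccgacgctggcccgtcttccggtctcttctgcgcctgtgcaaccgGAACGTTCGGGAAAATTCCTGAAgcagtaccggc
Hspe1: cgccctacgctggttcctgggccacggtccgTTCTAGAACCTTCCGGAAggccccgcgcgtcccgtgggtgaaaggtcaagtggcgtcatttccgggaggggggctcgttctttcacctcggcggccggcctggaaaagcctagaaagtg
Dnajb6: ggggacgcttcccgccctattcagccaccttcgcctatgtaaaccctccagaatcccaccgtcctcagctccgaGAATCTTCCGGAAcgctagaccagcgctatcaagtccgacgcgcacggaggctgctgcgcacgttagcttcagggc
Hspa1b: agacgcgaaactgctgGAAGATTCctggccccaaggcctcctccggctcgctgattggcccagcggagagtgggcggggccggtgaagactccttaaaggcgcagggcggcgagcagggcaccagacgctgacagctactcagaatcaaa
Hspb1: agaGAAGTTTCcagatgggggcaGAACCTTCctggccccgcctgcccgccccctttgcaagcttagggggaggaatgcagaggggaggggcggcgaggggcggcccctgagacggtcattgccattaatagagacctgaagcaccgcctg
Cct3: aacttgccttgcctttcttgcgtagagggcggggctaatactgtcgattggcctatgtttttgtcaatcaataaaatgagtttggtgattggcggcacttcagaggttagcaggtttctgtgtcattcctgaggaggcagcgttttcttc

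Levels spanned a wide range. Per kb of transcript, the constitutive HSP70 gene Hspa8 stood highest, at 560 CPM per kb in KO livers and 462 CPM per kb in WT livers, followed by the HSP90 gene Hsp90ab1 at 442 CPM per kb in KO livers and 439 CPM per kb in WT livers. The mitochondrial members Hspd1 (HSP60), Hspa9 (mitochondrial HSP70) and Hspe1 (HSP10) came next, between 182 and 247 CPM per kb in KO livers and between 192 and 260 CPM per kb in WT livers. The ring subunits with a transcript length lay close to each other, from 58.6 (Cct4) to 110 (Tcp1) CPM per kb in KO livers and from 55.3 (Cct4) to 108 (Tcp1) CPM per kb in WT livers; Cct6a had no length and was not ranked. The stress-inducible HSP70 genes were lowest: Hspa1b had 2.23 CPM per kb in KO livers and 3.04 CPM per kb in WT livers, and Hspa1a 0.0917 CPM per kb in KO livers and 0.139 CPM per kb in WT livers. Hspa1a was the only member under 1 CPM, with 2 to 61 reads per library. Hspa1a and Hspa1b are near-identical copies, so reads may have been split between them and each value is uncertain.

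In WT livers nearly every member followed a 24 h rhythm, and most peaked in the subjective night. A 24 h wave was called in 31 of 34 members in WT livers (edgeR's quasi-likelihood test, Benjamini-Hochberg adjusted over 14836 genes, threshold 0.05). Of all genes tested, 48.1% were called. The calls took in 19 of 20 heat-inducible members, 7 of 8 ring members and 5 of 6 others. The crystallin gene Cryab (adjusted p = 0.176), Hsf1 itself (adjusted p = 0.274) and Cct4 (adjusted p = 0.0825) were not called. Of the 31 rhythmic members, 28 (90.3%) peaked between ZT12 and ZT24, as did 51.4% of all genes rhythmic in WT livers and 24.7% of all genes tested. The 3 others, Dnajb6 (ZT11.6), Cdc37 (ZT11.7) and Dnaja2 (under ZT12, at ZT12.0 when rounded), peaked just before. In KO livers no member was called rhythmic by edgeR, by DESeq2 or by limma, and 3 of 34 had an unadjusted p under 0.05; over all genes tested, 0.984% were called in KO livers and 21.6% had an unadjusted p under 0.05. A test of any difference among the 6 times in KO livers also called 0 members, beside 0.91% of all genes. With total counts in place of scaling factors, 1 of the 6 other members was called in KO livers.

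**Figure D1:**
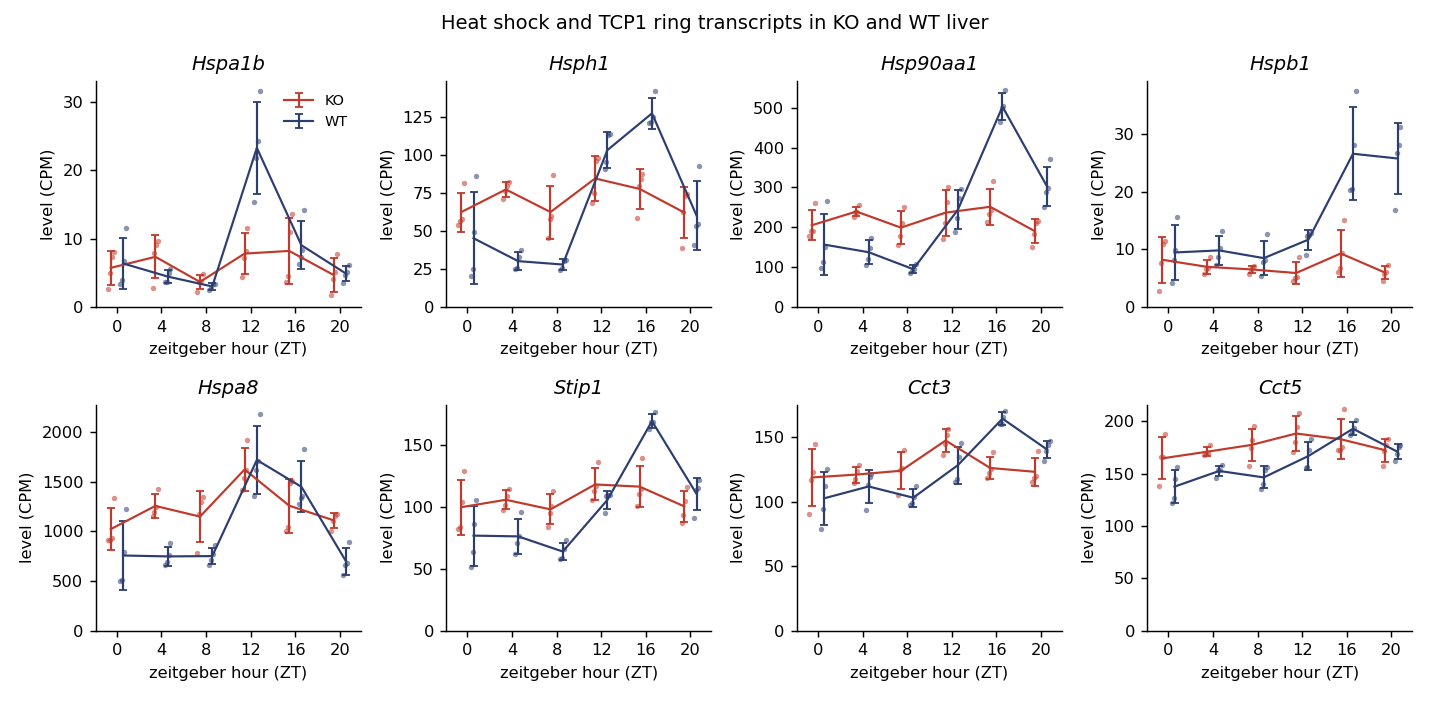
Level in CPM (y axis) against zeitgeber hour (x axis) for 8 members, with a point for each mouse and lines with bars for the mean ± SD of 4 mice, KO in red and WT in blue. Hsp90aa1 in WT livers stood at 503 CPM at ZT16 and 95.1 CPM at ZT8, whereas its KO group means stayed between 190 and 252 CPM.

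Among the HSP70 genes, Hspa1b, the heat-inducible HSP70 (ENSMUSG00000090877, mm9 chromosome 17, 35093381 to 35096183), was low through the day except in WT livers at ZT12. At ZT12 its level was 8.22, 7.21, 4.35 and 11.5 CPM in KO livers, against 15.4, 21.9, 24.3 and 31.6 CPM in WT livers. Every WT mouse of that time stood above every KO mouse, and the fold change (KO minus WT, log2) was -1.57 ± 0.40 (SE, adjusted p = 0.00875, edgeR). By ZT16 the WT level was back to 9.04 ± 3.54 CPM, against 8.21 ± 4.87 CPM in KO livers (SD, n = 4 each), and the groups overlapped. Hspa1a behaved likewise at its far lower level, with 0.272, 0.360, 0.322 and 0.439 CPM in KO livers at ZT12, against 0.549, 0.774, 1.56 and 1.84 CPM in WT livers, a log2 fold change of -1.75 ± 0.44 (adjusted p = 0.00647, edgeR). Both calls at ZT12 were lost without the 4 libraries named above (adjusted p = 0.151 for Hspa1b and 0.0611 for Hspa1a), and that of Hspa1a with body weight in the model (0.0515). The rhythm difference between genotypes was not called for either gene (adjusted p = 0.152 for Hspa1b and 0.253 for Hspa1a).

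Hspa8, the constitutive HSP70 (ENSMUSG00000015656, mm9 chromosome 9, 40609067 to 40613283), had a WT peak at ZT13.5 ± 0.61 h (SE). In the subjective day the KO level stayed above WT: at ZT4 it was 1194, 1246, 1425 and 1154 CPM in KO livers, against 881, 661, 692 and 757 CPM in WT livers. Every KO mouse stood above every WT mouse at ZT4, with a log2 fold change of 0.75 ± 0.20 (adjusted p = 0.028, edgeR), a call lost on leaving out any of 5 mice of ZT4 (highest adjusted p = 0.096). At ZT12 the groups met, at 1621 ± 217 CPM in KO livers and 1716 ± 345 CPM in WT livers (SD, n = 4 each). At ZT20, in the subjective night, every KO mouse again stood above every WT mouse. The level was 1109 ± 75.5 CPM in KO livers and 697 ± 138 CPM in WT livers there (SD, n = 4 each). The log2 fold change of 0.67 ± 0.20 (SE) at ZT20 was not called (adjusted p = 0.0918, edgeR). Over 24 mice each, the lowest, median and highest levels were 779, 1182 and 1920 CPM in KO livers and 497, 826 and 2183 CPM in WT livers, so that the KO range lay inside the WT range with a higher centre. The exchange factors of HSP70 differed in size: Hsph1 (HSP110; ENSMUSG00000029657, mm9 chromosome 5, 150416862 to 150438951) had the largest amplitude of all 34 members in WT livers, Hspa4l a middling one and Hspa4 a small one.

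At ZT4, Hsph1 stood at 82.5, 79.5, 76.5 and 71.5 CPM in KO livers, against 37.7, 32.9, 25.0 and 25.5 CPM in WT livers. At ZT8 it stood at 58.3, 45.3, 60.0 and 86.8 CPM in KO livers, against 24.5, 30.5, 31.2 and 26.0 CPM in WT livers. At ZT16 it stood at 80.1, 84.7, 87.8 and 58.8 CPM in KO livers, against 143, 122, 121 and 125 CPM in WT livers. The KO mice were thus above all WT mice of ZT4 and ZT8 and below all of ZT16. The log2 fold change was 1.36 ± 0.27 at ZT4 (adjusted p = 0.00325) and 1.16 ± 0.27 at ZT8 (adjusted p = 0.00518, edgeR). The ZT16 difference was not called. Its amplitude (log2, mean to peak, with SE) was 0.15 ± 0.12 in KO livers and 1.07 ± 0.12 in WT livers. The rhythms differed (adjusted p = 0.00012, edgeR). Hspa4l, a relative of Hsph1, differed in the later night: its level was 39.1, 45.4, 63.0 and 41.7 CPM in KO livers at ZT16, against 74.3, 83.8, 71.4 and 85.3 CPM in WT livers. No KO mouse reached a WT mouse there, and the log2 fold change was -0.73 ± 0.14 (adjusted p = 0.00187, edgeR). At ZT20 it was -0.61 ± 0.14 (adjusted p = 0.022, edgeR), a call lost on leaving out any of 3 mice of ZT20 (highest adjusted p = 0.136). The latest WT peak of the set, ZT18.6 ± 0.44 h, was that of Hspa4l. Hspa4 had an amplitude of 0.09 ± 0.04 in KO livers and 0.17 ± 0.04 in WT livers, and its rhythms were not shown to differ (adjusted p = 0.421, edgeR).

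The HSP90 pair was unequal. Hsp90aa1, the heat-inducible HSP90 (ENSMUSG00000021270, mm9 chromosome 12, 111928815 to 111940938), had 233, 243, 317 and 213 CPM in KO livers at ZT16, against 505, 544, 463 and 498 CPM in WT livers. At ZT8 the order of the genotypes was the opposite, with 210, 178, 156 and 252 CPM in KO livers, against 86.0, 108, 95.2 and 91.4 CPM in WT livers. Neither pair of groups overlapped. The log2 fold change was -0.999 ± 0.21 at ZT16 (adjusted p = 0.00326) and 1.07 ± 0.21 at ZT8 (adjusted p = 0.000835, edgeR). Averaged over the day these cancelled to 0.09 ± 0.08 (adjusted p = 0.557, edgeR), while the amplitude was 0.09 ± 0.10 in KO livers and 1.03 ± 0.10 in WT livers, the smallest adjusted p of the 34 members for a rhythm difference (3.47e-06). Hsp90ab1, the constitutive HSP90, was several times more abundant, with 1170 ± 190 CPM in KO livers at ZT16 and 1591 ± 170 CPM in WT livers (SD, n = 4 each). The lower KO level was called (log2 fold change -0.44 ± 0.12, adjusted p = 0.0253, edgeR) although 1 KO mouse, at 1439 CPM, stood above the lowest WT mouse, at 1343 CPM. Leaving out any of 6 mice of ZT16 ended that call (highest adjusted p = 0.106). Its rhythm difference fell just short of the threshold (adjusted p = 0.0536, edgeR).

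Small heat shock proteins hold unfolded proteins without using ATP. Hspb1, the small heat shock protein known as HSP25 in mouse (ENSMUSG00000004951, mm9 chromosome 5, 136363789 to 136365433), was the one member lower in KO livers at all 6 times. At ZT20 its level was 6.15, 5.75, 7.33 and 4.59 CPM in KO livers, against 28.2, 31.3, 26.7 and 16.8 CPM in WT livers. At ZT16 it was 9.36, 6.00, 15.03 and 6.77 CPM in KO livers, against 20.2, 37.4, 20.5 and 28.1 CPM in WT livers. No KO mouse reached the lowest WT mouse at either time. The log2 fold change was -2.11 ± 0.32 at ZT20 (adjusted p = 0.000776) and -1.52 ± 0.32 at ZT16 (adjusted p = 0.00403, edgeR). At ZT12 it was also called, at -0.99 ± 0.33 (adjusted p = 0.0433, edgeR), but leaving out any of 6 single mice of ZT12 ended that call (highest adjusted p = 0.0936). It was also lost without the 4 libraries named above (0.0547), with body weight in the model (0.142), with no filter on low counts (0.0567) and in limma without a cage block (0.0542). Hspb8, a partner of Bag3 in clearing misfolded proteins, ranged from 109 to 192 CPM with a median of 155 CPM in KO livers and from 84.9 to 340 CPM with a median of 154 CPM in WT livers. Its rhythms differed (adjusted p = 0.028, edgeR), a call lost without WT mouse 22 of ZT12 or WT mouse 29 of ZT16 (highest adjusted p = 0.0557) and without the 4 libraries named above (0.0519). Cryab had 3.71 ± 0.81 CPM in KO livers and 3.69 ± 0.53 CPM in WT livers (SD, n = 24 each), with no call in any comparison. Bag3 itself, an exchange factor that ties HSP70 to small heat shock proteins, was rhythmic in WT livers (amplitude 0.51 ± 0.12, peak ZT14.8 ± 0.86 h), but its rhythms were not shown to differ (adjusted p = 0.123, edgeR).

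J-domain proteins hand clients to HSP70. Dnaja1 stood at 289, 278, 238 and 248 CPM in KO livers at ZT4, against 161, 187, 145 and 190 CPM in WT livers. The groups did not overlap, and the log2 fold change was 0.63 ± 0.15 (adjusted p = 0.0136, edgeR). The call was lost without WT mouse 4 (adjusted p = 0.0528). Its amplitude was 0.09 ± 0.07 in KO livers and 0.55 ± 0.07 in WT livers, and the rhythms differed (adjusted p = 0.000447, edgeR). Dnajb6, which keeps aggregation-prone proteins soluble, was alone among the 6 other members in a rhythm difference (adjusted p = 0.000131, edgeR): at ZT12 it had 60.0, 61.02, 57.5 and 51.7 CPM in KO livers, against 75.2, 87.5, 72.1 and 67.6 CPM in WT livers. Every WT mouse was above every KO mouse at that time (log2 fold change -0.39 ± 0.08, adjusted p = 0.00151, edgeR), and its WT peak, ZT11.6 ± 0.46 h, was the earliest of the set. Its window holds the three-unit element printed above. Dnajb1, Dnajb4 and Dnaja2 were rhythmic in WT livers, with amplitudes of 0.37 ± 0.10, 0.24 ± 0.06 and 0.19 ± 0.04, against 0.11 ± 0.10, 0.07 ± 0.06 and 0.05 ± 0.04 in KO livers. For these 3 the difference between rhythms did not pass (adjusted p = 0.182, 0.300 and 0.0589, edgeR), although that of Dnaja2 passed without the 4 libraries named above.

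Calls for the HSP90 cochaperones came at the times of those of Hsp90aa1, higher in KO livers at ZT4 or ZT8 and lower at ZT16. Stip1 (HOP), which bridges HSP70 and HSP90, stood at 114, 111, 140 and 100 CPM in KO livers at ZT16, against 176, 169, 163 and 169 CPM in WT livers. At ZT8 it stood at 101, 83.6, 94.7 and 112 CPM in KO livers, against 58.9, 72.9, 57.9 and 65.7 CPM in WT livers. Neither pair overlapped, and the log2 fold change was -0.54 ± 0.15 at ZT16 (adjusted p = 0.0273) and 0.62 ± 0.15 at ZT8 (adjusted p = 0.00838, edgeR). Chordc1, an HSP90-binding protein whose window carries 3 overlapping three-unit matches, was likewise below WT at ZT16, with 46.5, 60.1, 48.9 and 43.6 CPM in KO livers, against 74.6, 72.4, 84.6 and 62.2 CPM in WT livers (log2 fold change -0.56 ± 0.16, adjusted p = 0.0267, edgeR). At ZT4 it was above WT, at 49.7, 50.5, 48.1 and 48.8 CPM in KO livers, against 32.7, 35.3, 30.2 and 31.7 CPM in WT livers, again without overlap (log2 fold change 0.60 ± 0.16, adjusted p = 0.023, edgeR). Ahsa1, which stimulates the ATPase of HSP90, had 89.0, 88.2, 104 and 82.0 CPM in KO livers at ZT16, against 127, 123, 113 and 116 CPM in WT livers (log2 fold change -0.40 ± 0.10, adjusted p = 0.0137, edgeR). Fkbp4 (FKBP52), a cochaperone of steroid receptors, had 318, 275, 326 and 319 CPM in KO livers at ZT8, against 188, 213, 187 and 197 CPM in WT livers, a log2 fold change of 0.65 ± 0.15 (adjusted p = 0.00526, edgeR). All 4 differed in rhythm between genotypes (adjusted p = 0.00045, 0.000658, 0.000658 and 0.000257 in the order given, edgeR). Leaving out any of 6 mice of ZT16 ended the ZT16 call of Stip1 (highest adjusted p = 0.0989) and likewise that of Chordc1 (0.106). Leaving out any of 3 mice of ZT4 ended the ZT4 call of Chordc1 (0.0674), and leaving out KO mouse 25 or 31 the ZT16 call of Ahsa1 (0.0611), while Cdc37, the kinase cochaperone of HSP90, had no call between genotypes.

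The mitochondrial chaperonin pair Hspd1 and Hspe1 are neighbours whose entries overlap (mm9 chromosome 1, 55134679 to 55145087 and 55144976 to 55148151). The libraries did not record the strand, so reads in the overlap cannot be told apart. At ZT16 Hspd1 had 556, 638, 608 and 534 CPM in KO livers, against 795, 829, 780 and 743 CPM in WT livers. Hspe1 had 108, 130, 137 and 131 CPM in KO livers, against 212, 223, 186 and 172 CPM in WT livers. Neither pair overlapped, with log2 fold changes of -0.43 ± 0.09 for Hspd1 (adjusted p = 0.00292) and -0.64 ± 0.12 for Hspe1 (adjusted p = 0.00133, edgeR). Both differed in rhythm (adjusted p = 0.0188 for Hspd1 and 0.00223 for Hspe1, edgeR). Hspa9 had no call between genotypes at any single time, with an amplitude of 0.05 ± 0.04 in KO livers and 0.13 ± 0.04 in WT livers.

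The TCP1 ring was highest in the same part of the WT night, with a shallower wave. Its 7 rhythmic subunits had WT troughs and peaks that differed by 1.28 to 1.54 fold, and WT peaks from ZT13.0 to ZT16.4, whereas the 19 rhythmic heat-inducible members spanned 1.36 to 4.41 fold and ZT13.5 to ZT18.6. All 8 subunits had their highest WT group mean at ZT16 and their lowest at ZT0. Of the 20 heat-inducible members, 5 had their lowest WT group mean at ZT0, 5 at ZT4 and 9 at ZT8. Cct3 (ENSMUSG00000001416, mm9 chromosome 3, 88101038 to 88125689) had the largest WT amplitude, with 123, 125, 139 and 118 CPM in KO livers at ZT16, against 166, 161, 171 and 161 CPM in WT livers. Cct6a, next in size, had 77.8, 85.5, 80.8 and 76.7 CPM in KO livers at ZT16, against 100, 105, 100 and 88.4 CPM in WT livers. Both genes were lower in all KO mice of that time than in any WT mouse, with log2 fold changes of -0.38 ± 0.11 for Cct3 (adjusted p = 0.0332) and -0.29 ± 0.08 for Cct6a (adjusted p = 0.0249, edgeR). Each call was lost on leaving out any of 6 or any of 5 single mice of ZT16, with adjusted p up to 0.0991 and 0.0897. Cct2, next by amplitude, had 113, 132, 143 and 136 CPM in KO livers at ZT0, against 118, 109, 108 and 100 CPM in WT livers, and these overlapped. Rhythm differences were called for Cct3 (adjusted p = 0.0108), Cct6a (0.00642), Tcp1 (0.0237) and Cct7 (0.0258, edgeR), and not for Cct2 (0.193), Cct5 (0.0789), Cct8 (0.242) or Cct4 (0.938).

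Tcp1 ranged from 127 to 168 CPM with a median of 141 CPM in KO livers and from 108 to 169 CPM with a median of 137 CPM in WT livers. Cct7 ranged from 98.3 to 153 CPM with a median of 122 CPM in KO livers and from 89.0 to 149 CPM with a median of 118 CPM in WT livers. Both had a wider range in WT livers. Cct8 ranged from 135 to 185 CPM in KO livers and from 117 to 196 CPM in WT livers. Across the ring, the median log2 fold change was 0.26 at ZT0, with 8 of 8 subunits above 0, and -0.18 at ZT16, with 0 of 8 above 0, beside medians of -0.01 and -0.00 over all genes tested. With total counts in place of scaling factors the ring medians were 0.16 and -0.14, and 1 of 8 was above 0 at ZT16. The medians over all genes tested moved too, to -0.10 at ZT0 and 0.04 at ZT16. At single times, the ring calls were Tcp1 at ZT0, Cct5 at ZT8, Cct4 at ZT12 and the pair Cct3 and Cct6a at ZT16.

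Set side by side, the median amplitude of the 20 heat-inducible members was 0.11 in KO livers and 0.53 in WT livers, that of the 8 ring members 0.09 in KO livers and 0.21 in WT livers, and that of all 14836 genes tested 0.11 in KO livers and 0.18 in WT livers. In KO livers the 3 medians were therefore close to one another, and in WT livers the ring stood near the median of all genes. With total counts in place of scaling factors, the WT medians were 0.48, 0.16 and 0.19 in the same order. The amplitude was smaller in KO than in WT livers for 33 of 34 members, all but Cct4, and for 71.9% of all genes tested. The test of the difference itself called 17 of 34 members (12 of 20 heat-inducible, 4 of 8 ring, 1 of 6 other), against 22.8% of all genes tested.

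**Figure D2:**
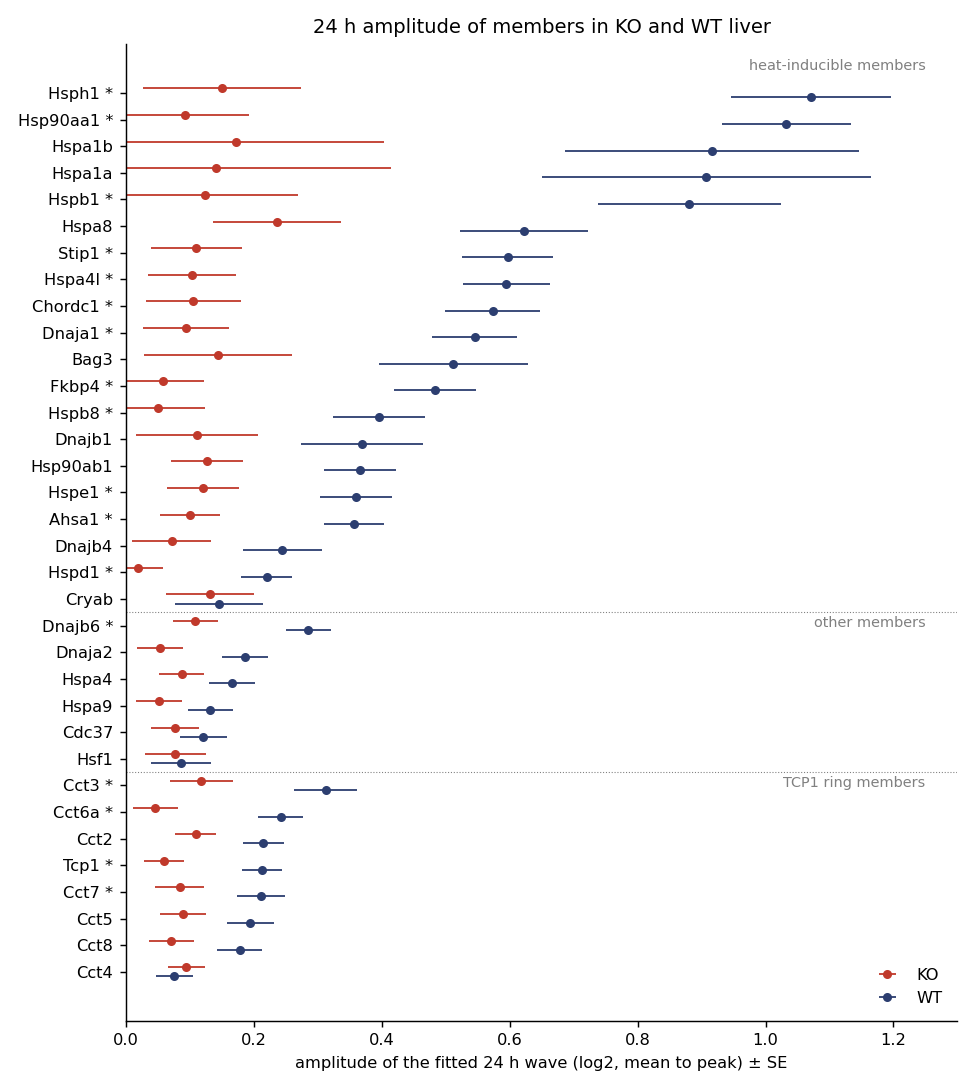
Amplitude of the fitted 24 h wave (x axis, log2 from mean to peak, bars ± SE) for the 34 members, KO in red and WT in blue, in 3 blocks by role; an asterisk marks a called rhythm difference. In WT livers 5 heat-inducible members (Hsph1, Hsp90aa1, Hspa1b, Hspa1a and Hspb1) lie at 0.88 or above, whereas the widest ring member, Cct3, lies at 0.31.

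Within the WT night the fitted peaks spread over several hours. Among HSP70 genes and their helpers, Hspa8 at ZT13.5 ± 0.61 h, Hspa1b at ZT13.7 ± 0.95 h and Dnaja1 at ZT13.8 ± 0.47 h (SE) came early. The exchange factors Hsph1 at ZT15.9 ± 0.44 h, Hspa4 at ZT16.8 ± 0.81 h and Hspa4l at ZT18.6 ± 0.44 h came later. Bag3, also an exchange factor, peaked at ZT14.8 ± 0.86 h, near the J-domain genes Dnajb1 at ZT14.0 ± 0.99 h and Dnajb4 at ZT14.7 ± 0.97 h. The early and late genes were thus not cleanly split by role. Of the HSP90 pair and its cochaperones, Hsp90aa1 peaked at ZT17.1 ± 0.37 h, Hsp90ab1 at ZT16.4 ± 0.58 h, Ahsa1 at ZT16.2 ± 0.50 h, Stip1 at ZT16.6 ± 0.46 h, Chordc1 at ZT16.6 ± 0.50 h and Fkbp4 at ZT17.8 ± 0.51 h, whereas Cdc37 peaked at ZT11.7 ± 1.17 h. Hspb1 peaked at ZT17.8 ± 0.62 h. Differences between peak hours were not tested. Called peaks of the ring ran from Cct2 at ZT13.0 ± 0.57 h and Tcp1 at ZT13.2 ± 0.56 h to Cct5 at ZT15.7 ± 0.71 h and Cct3 at ZT16.4 ± 0.61 h. Group means placed the WT maximum at ZT12 for 8 heat-inducible members and at ZT16 for the other 12.

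**Figure D3:**
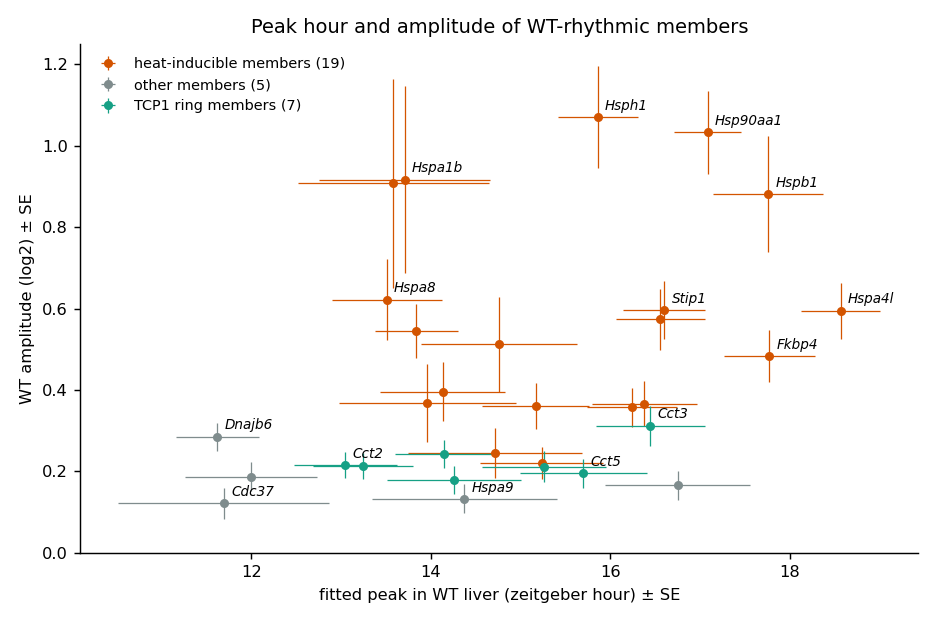
Fitted WT amplitude (y axis, log2 ± SE) against fitted WT peak (x axis, zeitgeber hour ± SE) for the 31 members called rhythmic in WT livers, coloured by role. Peaks run from ZT11.6 (Dnajb6) to ZT18.6 (Hspa4l), and ring members lie low, at 0.31 or under.

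Averaged over the 6 times, 6 of 34 members differed between genotypes, beside 8.86% of all genes tested. Higher in KO livers were 5 members, beside 4.94% of all genes: Hspa8 (log2 fold change 0.36 ± 0.08, adjusted p = 0.00317), Hsph1 (0.34 ± 0.11, adjusted p = 0.0422), Dnaja1 (0.19 ± 0.06, adjusted p = 0.0371), Cct5 (0.14 ± 0.03, adjusted p = 0.00827) and Cct4 (0.08 ± 0.03, adjusted p = 0.0357, edgeR). Lower was 1 member, Hspb1, at -0.95 ± 0.13 (adjusted p = 4.24e-06, edgeR), beside 3.92% of all genes. It had 7.14 ± 2.60 CPM in KO livers and 15.3 ± 9.0 CPM in WT livers (SD, n = 24 each). Cct5 had 176 ± 16 CPM in KO livers and 161 ± 21 CPM in WT livers, and Cct4 121 ± 9.8 CPM in KO livers and 114 ± 8.1 CPM in WT livers (SD, n = 24 each), so these 2 ring differences were no larger than the SD over mice. Of the 6, only Hspb1 kept 1 sign at all 6 times; Hspa8, Hsph1 and Dnaja1 were higher at 4 times, and Cct4 and Cct5 at 5. KO mice weighed 27.9 ± 2.5 g and WT mice 30.5 ± 2.1 g (SD, n = 24 each). With body weight in the model the calls of Hsph1, Dnaja1 and Cct5 were lost (adjusted p = 0.0983, 0.124 and 0.0632), and its part in the result was not tested further. In fits that left out 1 mouse each, Hspa8, Hspb1 and Cct5 passed in 48 of 48, Cct4 in 35, Dnaja1 in 30 and Hsph1 in 21, and without the 4 libraries named above Hsph1, Cct4 and Cct5 did not pass (adjusted p = 0.055, 0.201 and 0.0573), whereas Fkbp4 did. Of the cell type markers counted in the same contrast, Apoa1, 1 of 3 of hepatocytes, was higher in KO livers (log2 fold change 0.33, adjusted p = 0.0194), and Kdr, 1 of 4 of endothelial cells, was lower (-0.18, adjusted p = 0.0107, edgeR). No marker of Kupffer cells, stellate cells, smooth muscle, cholangiocytes, lymphocytes, red blood cells or adipocytes was called, and the part of cell type in these differences was not tested.

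The direction depended on the hour. In all, 21 of 34 members were called at 1 time or more, beside 23.3% of all genes tested. At ZT4 the KO level was higher in 6 members (Hspa8, Hsph1, Hsp90aa1, Dnaja1, Chordc1 and Fkbp4), beside 1.9% of all genes higher and 3.79% called in either direction, and no member was lower. At ZT8 it was higher in 5 (Hsph1, Hsp90aa1, Stip1, Fkbp4 and Cct5), beside 3.78% of all genes higher, 4.08% lower and 7.87% in either direction. At ZT12 it was lower in 4 (Hspa1a, Hspa1b, Hspb1 and Dnajb6), beside 5.12%, and higher in Cct4 alone, beside 6.59% (11.7% in either direction). At ZT16 it was lower in 11 (Hspa4l, Hsp90aa1, Hsp90ab1, Hspb1, Hspd1, Hspe1, Stip1, Chordc1, Ahsa1, Cct3 and Cct6a), beside 2.77% of all genes lower and 5.37% in either direction, and no member was higher. At ZT20 it was lower in Hspa4l and Hspb1, beside 0.404% lower and 1.05% in either direction. At ZT0 it was higher in Tcp1 alone, beside 1.06% higher and 1.68% in either direction. Of these 30 calls, those of Hsp90ab1 at ZT16 and Cct4 at ZT12 had KO and WT mice that overlapped. In the other calls they did not, which adds no separate support, since the calls were picked by the same values. Groups without overlap were also found in other comparisons that were not called. Examples are Hspa4 (adjusted p = 0.21), Hsph1 (0.106) and Cct7 (0.0586, edgeR) at ZT16, and Hspa8 at ZT20 (0.0918, edgeR). How often groups did not overlap over all genes was not counted. No call changed sign under another scaling. Without the 4 libraries named above 1 of the 5 ZT12 calls was left, that of Dnajb6, while Dnajb1 and Stip1 at ZT4, Hspa8 and Ahsa1 at ZT8 and Cct7 at ZT16 were called in addition.

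At ZT4 Hsp90aa1 stood at 240 ± 12 CPM in KO livers and 138 ± 31 CPM in WT livers, and Fkbp4 at 345 ± 29 CPM in KO livers and 242 ± 53 CPM in WT livers (SD, n = 4 each). Leaving out any of 3 mice of ZT4 ended the call of Hsp90aa1 (highest adjusted p = 0.0944). Fkbp4 at ZT4 was the least steady call, passing in 21 of 48 fits that left out 1 mouse (highest adjusted p = 0.204), and was lost with body weight in the model (0.0563). Cct5 at ZT8 had 182, 158, 174 and 195 CPM in KO livers, against 140, 154, 135 and 157 CPM in WT livers. Tcp1 at ZT0 had 128, 153, 139 and 138 CPM in KO livers, against 123, 108, 111 and 121 CPM in WT livers. Each KO mouse stood above each WT mouse in these 2 comparisons (log2 fold changes 0.28 ± 0.08 for Cct5 and 0.27 ± 0.07 for Tcp1), but the Tcp1 call was lost without the 4 libraries named above (adjusted p = 0.297), with total counts (0.113), with body weight (0.0585), with a cage block in limma (0.0538) and on leaving out any of 6 mice of ZT0 (highest 0.136), and the Cct5 call on leaving out any of 5 mice of ZT8 (highest adjusted p = 0.116). Cct4 at ZT12 was a narrow call (123, 135, 150 and 118 CPM in KO livers, against 113, 120, 106 and 113 CPM in WT livers): without the 4 libraries its log2 fold change was 0.08, with an adjusted p of 0.552, and with total counts the adjusted p was 0.0844.

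**Figure D4:**
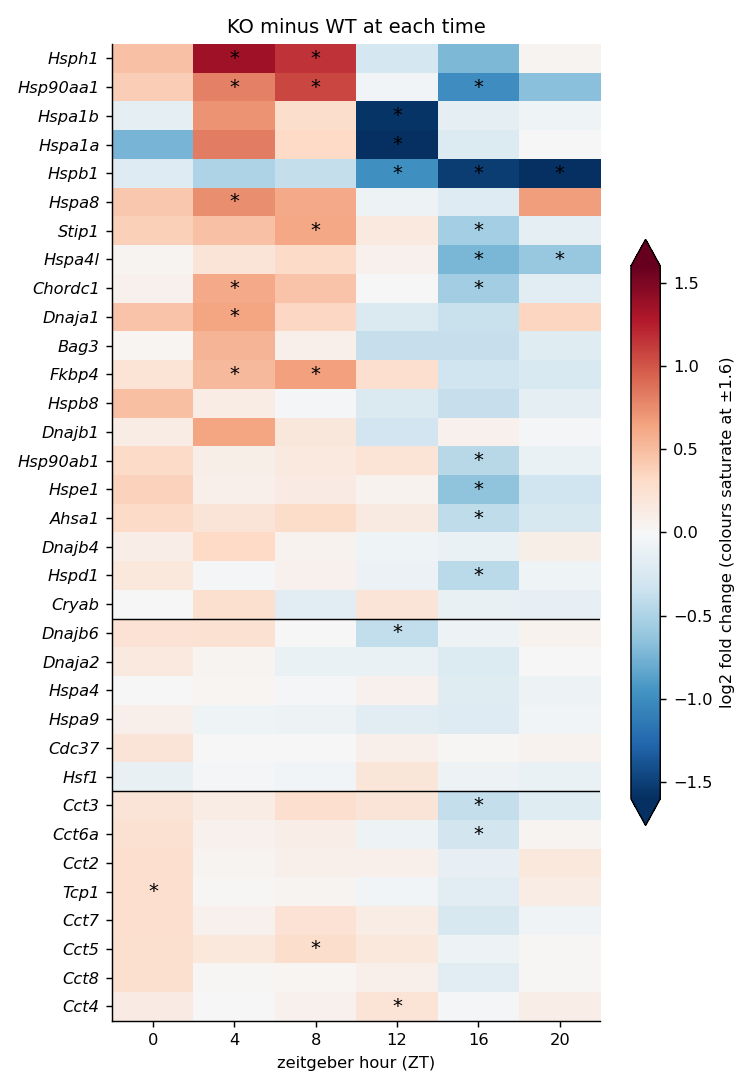
KO minus WT log2 fold change (colour, red for higher in KO, saturating at the ends of the scale) for the 34 members (rows, in 3 blocks by role) at the 6 times (columns, zeitgeber hour); an asterisk marks an adjusted p under 0.05. Calls at ZT4 and ZT8 are red and those at ZT16 and ZT20 are blue.

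Times were also pooled in the pairs that shared a set of cages among group-housed mice. These values average the contrasts at single times given above, from the same mice, and are not separate support. Over ZT4 and ZT8, 10 members were higher in KO livers and none lower, beside 7.4% of all genes higher. Over ZT12 and ZT16, 10 were lower and none higher, beside 4.81% lower and 6.01% higher. Over ZT20 and ZT0, 4 were higher (Hspa8, Dnaja1, Tcp1 and Cct2), beside 3.29%, and Hspb1 was lower, beside 2.18% (5.47% in either direction). The log2 fold change of Hsph1 was 1.26 over ZT4 and ZT8 (adjusted p = 1.91e-05) and -0.50 over ZT12 and ZT16 (adjusted p = 0.0793, edgeR). That of Hsp90aa1 was 0.93 over ZT4 and ZT8 (adjusted p = 3.29e-05) and -0.52 over ZT12 and ZT16 (adjusted p = 0.0154, edgeR).

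Mouse by mouse, the mean of the 20 heat-inducible members (each centred on its own mean over all mice, log2 CPM) had group means from -0.15 at ZT8 to 0.18 at ZT12 in KO livers and from -0.45 at ZT8 to 0.56 at ZT16 in WT livers. For the 8 ring members the group means ran from -0.04 at ZT0 to 0.15 at ZT12 in KO livers and from -0.27 at ZT0 to 0.24 at ZT16 in WT livers. The WT ring mean was already -0.10 at ZT4 and -0.09 at ZT8, and 0.06 at ZT12. The WT heat-inducible mean instead went from -0.27 at ZT0 to -0.35 at ZT4 and -0.45 at ZT8, and stood at 0.43 at ZT12. All 4 WT mice of ZT16 lay above all 24 KO mice in the heat-inducible mean. In the ring mean they did not: the WT mice of ZT16 lay between 0.18 and 0.28, and the highest KO mouse lay at 0.24. WT mice of ZT0 were far apart in the heat-inducible mean, at 0.33 for mouse 42 and at -0.51, -0.18 and -0.73 for mice 45, 47 and 48; without mouse 42 no call of a WT rhythm among members was lost, whereas the calls at single times numbered 49 in place of 30.

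**Figure D5:**
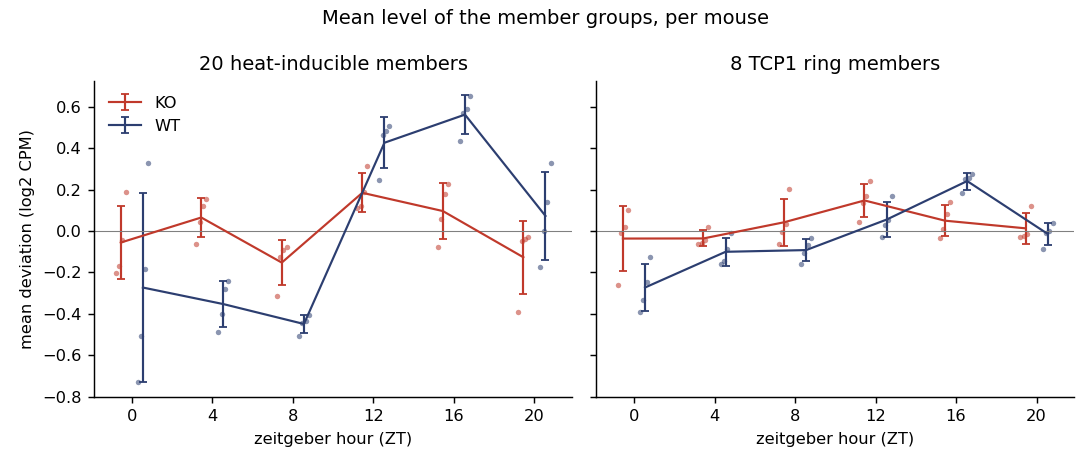
Mean deviation (y axis, log2 CPM, each gene centred on its mean over all mice) against zeitgeber hour (x axis) for the heat-inducible and the ring members, with a point per mouse and lines with bars for mean ± SD of 4 mice, KO in red and WT in blue. The span of group means is 0.34 in KO and 1.01 in WT livers for the heat-inducible members, and 0.18 in KO and 0.51 in WT livers for the ring.

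Genes around these pathways were counted in the same fits, in which 48.1% of all genes tested were rhythmic in WT livers, 0.984% were rhythmic in KO livers and 22.8% differed in rhythm. Of 14 further heat-inducible genes, 10 were rhythmic in WT livers and 0 in KO livers (edgeR), and 10 differed in rhythm. P4ha1, a hydroxylase of collagen synthesis (amplitude 0.06 in KO and 0.54 in WT livers, adjusted p of the difference 0.00113) and Cacybp (0.09 in KO and 0.37 in WT livers, adjusted p = 0.000859) peaked at ZT17.1 and ZT16.0 in WT livers. Sqstm1 (0.13 in KO and 0.25 in WT livers, adjusted p = 4.3e-05) peaked at ZT0.5 instead. Fitted WT peaks of the 14 genes, called or not, ran from ZT0.5 to ZT20.0, so the list did not share 1 peak time. Of 19 further HSP70 and HSP90 partners, 14 were rhythmic in WT livers and 6 differed in rhythm, led by the steroid-receptor cochaperone Fkbp5, whose amplitude was 0.21 in KO and 0.96 in WT livers (adjusted p = 5.8e-06) with a WT peak at ZT12.3. Hsf1 had 14.9 ± 1.9 CPM in KO livers and 15.2 ± 1.5 CPM in WT livers (SD, n = 24 each), and of 4 related genes Hsf2 (adjusted p = 0.0375) and Hsf4 (adjusted p = 0.000238) differed in rhythm. Prefoldin delivers actin and tubulin to the ring. A list of 9 genes held prefoldin subunits, the ring cofactors Pdcl, Pdcl3 and Txndc9, and Cct6b, a ring subunit gene not counted among the ring members. Of these 9, 3 were rhythmic in WT livers, 1 (Pfdn4) in KO livers, and Pdcl3 alone differed (adjusted p = 0.000709, edgeR). The WT rhythm count and the difference count lay below the shares of all genes, but the list is short and this was not tested.

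Of 8 actin and tubulin genes tested, the clients of the ring, 7 were rhythmic in WT livers and 5 differed in rhythm, with amplitudes of 0.49 in KO and 1.72 in WT livers for Tubb2a (adjusted p = 2.29e-05) and 0.19 in KO and 0.73 in WT livers for Actg1 (adjusted p = 0.0144, edgeR). Chaperones of the endoplasmic reticulum, which are under separate control by the unfolded protein response, were all 14 rhythmic in WT livers and 7 differed in rhythm, with WT peaks from ZT13.9 to ZT17.5. Hspa5 (BiP) had an amplitude of 0.21 in KO and 0.68 in WT livers (adjusted p = 0.00879). Of 10 further mitochondrial chaperones and proteases, 8 were rhythmic in WT livers and 2 differed, a share near the 22.8% of all genes. The 2 were Clpx (amplitude 0.44 in KO and 1.23 in WT livers, WT peak ZT21.7) and Grpel2. The cold-inducible RNA-binding gene Cirbp peaked at ZT5.1 in WT livers, with an amplitude of 0.12 in KO and 0.75 in WT livers (adjusted p = 0.000763). The other gene of that list, Rbm3, peaked at ZT10.1 in WT livers, near Dnajb6 and Cdc37, with an amplitude of 0.16 in KO and 0.48 in WT livers (adjusted p = 0.0216), and was higher in KO livers over the day (log2 fold change 0.34, adjusted p = 0.000112, edgeR). Of 7 immediate early genes, which respond to handling and other acute stimuli, 5 were rhythmic in WT livers, 0 in KO livers, and Jun (adjusted p = 0.00469) and Fos (adjusted p = 0.0101) differed in rhythm.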

How the data were processed

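Poly-A RNA of liver was sequenced from 48 mice with a kit that does not mark strand, per the labels' protocols. The deposited table holds whole-number counts of reads per gene made by the authors; CASAVA, STAR 2.4.0f1 and the mouse build mm9 are named in the submitters' processing notes, and the gene counting, the handling of reads that match several genes, and any step that gave the libraries nearly equal totals are not given in the sources used here.

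Counts were analysed in R 4.3.3 with edgeR 4.0.16 (TMM scaling, filterByExpr with a minimum count of 10, 14836 genes tested). A model of 12 group means gave KO minus WT contrasts, and a model with a 24 h wave per genotype gave amplitudes, peaks and tests of rhythm; p-values were adjusted by Benjamini-Hochberg over all genes tested. CPM per mouse are normalised by TMM. DESeq2 1.42.0 and limma 3.58.1, other scalings, no filter, body weight, housing, cage and leaving out mice were alternatives. The procedure was tested on simulated data. The labels number separate mice. Levels per kb used the median GENCODE transcript length of 33 members.

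The 34 members and the gene lists were chosen with earlier results of these data known. Named genes were all members, and in each further list those among the 4 with the smallest WT rhythm p, save Pfdn4, named as a single exception after its value was seen.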

Additional observations from a re-analysis of the deposited data

Results flagged for a closer look

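In 21 of 408 sets of 4 mice (5.15%), on 17 genes, 1 mouse stood apart from its group by a gap above Dixon's critical value for 4 values; chance marks about 1 in 20 such sets. Among KO mice, high values were those of Hspa8 in mouse 44 of ZT0 (1338 CPM), Cryab in mouse 21 of ZT12 (6.86 CPM), Hspd1 in mouse 6 of ZT4 (629.8 CPM), Dnaja1 in mouse 15 of ZT8 (298 CPM), Cct5 in mouse 5 of ZT4 (178 CPM) and mouse 30 of ZT16 (211 CPM), and Cct8 in mouse 15 of ZT8 (185 CPM). Low values among KO mice were those of Hspa1b in mouse 5 of ZT4 (2.81 CPM), Hspb8 and Fkbp4 in mouse 10 of ZT8 (109 CPM and 275 CPM), Dnaja2 in mouse 24 of ZT12 (129 CPM) and Dnajb4 in mouse 38 of ZT20 (34.7 CPM). Among WT mice, high values were those of Hspa8 and Cct7 in mouse 27 of ZT16 (1828 CPM and 149 CPM), Hspa4l in mouse 36 of ZT20 (82.1 CPM), Hspe1 in mouse 16 of ZT8 (155 CPM) and Fkbp4 in mouse 23 of ZT12 (316 CPM). Low values among WT mice were those of Hspa4l in mouse 16 of ZT8 (26.6 CPM), Hspb1 in mouse 19 of ZT12 (9.09 CPM), Stip1 in mouse 17 of ZT12 (94.6 CPM) and Cct4 in mouse 32 of ZT16 (119 CPM).

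The 24 h wave differed between KO and WT livers in 17 members (edgeR, adjusted over all genes tested). Adjusted p was 3.47e-06 for Hsp90aa1, 0.00012 for Hsph1, 0.000131 for Dnajb6, 0.000163 for Hspa4l, 0.000257 for Fkbp4, 0.000447 for Dnaja1, 0.00045 for Stip1, 0.000658 for Chordc1 and 0.000658 for Ahsa1. It was 0.00223 for Hspe1, 0.00642 for Cct6a, 0.00939 for Hspb1, 0.0108 for Cct3, 0.0188 for Hspd1, 0.0237 for Tcp1, 0.0258 for Cct7 and 0.028 for Hspb8. In each of the 17 the fitted amplitude was smaller in KO than in WT livers.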

How the results depend on the processing

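The averaged differences of 3 members changed direction over ZT12 and ZT16 alone, at -0.14 for Hspa8, -0.50 for Hsph1 and -0.30 for Dnaja1 (log2, KO minus WT), none of them called there; no other result did. The count of members that differed on average, 6 in the analysis reported, was 3 with no filter on low counts and 3 with body weight in the model, 10 (10 higher) over ZT4 and ZT8 alone and 10 (0 higher) over ZT12 and ZT16 alone, which hold fewer mice; the cause of the first pair was not tested. The count rhythmic in KO livers, 0, was 1 with total counts. Over 48 fits that left out 1 mouse each, the averaged count ran from 3 to 9, the calls at single times from 23 to 49, the WT rhythm count from 30 to 32, the KO rhythm count from 0 to 0 and the rhythm difference count from 16 to 22. Of 84 results of single genes, 876 values under alternatives kept their call, 63 lost it and 3 changed sign. In this tally the fits that left out 1 mouse entered only with their lowest and highest value. Calls lost in the other fits of that kind are not in it, and it understates how many were lost. The averaged call of Hsph1, for example, passed in only 21 of 48 such fits. With no filter on low counts the averaged calls of Hsph1 (adjusted p = 0.0555), Dnaja1 (0.0545) and Cct4 (0.0884), the rhythm differences of Tcp1 (0.0502) and Cct7 (0.0612), and the calls at single times of Tcp1 (0.0682), Fkbp4 at ZT4 (0.0776), Cct5 (0.0771), Cct4 (0.0653), Cct3 (0.0653) and Cct6a (0.0624) were lost. With total counts the averaged call of Cct4 (0.0582) and the WT rhythms of Hspa9 (0.0724) and Cdc37 (0.137) were lost; the last was also lost without WT mouse 45 or 48 of ZT0 (highest 0.0695). Without the 4 libraries least like their groups, Cct4 became rhythmic in WT livers. Over all genes, the averaged count was 1314, and 711 with body weight in the model. Mouse numbers are unique to each mouse and pair none. Cage mates, in 11 cages that held both genotypes, were linked by cage as a random block in limma (correlation 0.0806 in the group model and 0.158 in the wave model), which gave counts of 7 averaged, 29 at single times, 31 rhythmic in WT livers, 0 in KO livers and 17 rhythm differences, against 7, 29, 31, 0 and 17 without the block. Hspa1a, at 2 to 61 reads, was limited by depth.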
